A study of Rattus norvegicus with 6 samples.

Results

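Single-exon intergenic transcripts are stretches of the rat genome in which lung RNA was assembled into 1 unspliced transcript outside every annotated gene. They were taken from the table of linear transcripts as those with an assembly name instead of an Ensembl identifier, the class code u that marks an intergenic position, 1 exon and a length above 200 bases. Of 70376 linear transcripts, 7905 (11.2%) met these conditions. They made up 19.0% of the 41501 assembled transcripts and 75.3% of the intergenic ones.

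The lung of 3 Control and 3 Model rats was compared, with 1 library per rat made from RNA depleted of ribosomal RNA. All were Sprague-Dawley rats of 7 weeks. Model rats had received bleomycin at 7 mg/kg as 1 instillation into the trachea, which is used to induce pulmonary fibrosis, and Control rats the same volume of saline. Lung tissue was taken at day 28. The tissue was whole lung, so every value is an average over its cell types, and instilled bleomycin injures the lung in patches.

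Much of a mammalian genome between genes is transcribed at a low level. Such RNA can be a long non-coding RNA with a promoter of its own, an RNA made at an enhancer, an extension of a gene past its annotated end, or a piece of a longer transcript that was assembled only in part. Single-exon assemblies are the most difficult to assign among these, because they hold no splice junction that would give their strand. Sequences are not printed because the genome build behind the positions was not given in the sources used here, and positions below are those of the deposited table.

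The libraries carried the markers of lung. Sftpc, the surfactant gene of alveolar type II cells, lay between 2410 and 4146 FPKM (fragments per kilobase of transcript, scaled to library size), Scgb1a1, the club cell secretory protein gene, between 4050 and 7677, and Ager, a gene of alveolar type I cells, between 240 and 359. The summed FPKM of 27 genes of fibrosis and matrix lay between 592 and 605 in Control and between 579 and 726 in Model samples, so the groups overlapped on that list. The library Model 3 stood apart in Myh6, the cardiac myosin gene, with 5.11 FPKM against at most 0.034 in the other libraries. The summed level of the 7 cardiac muscle genes searched lay between 6.35 and 10.5 in Control and reached 25.2 in Model samples. The part of this in the results below was not tested. Values without Model 3 are given beside the results that changed without it.

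The transcripts were short. The median length was 511 bases, with 5% below 214 and 5% above 8005, while the 2565 spliced intergenic transcripts of the same assembly had a median of 2763 bases and the 7281 single-exon transcripts inside introns one of 710 bases. Members of at most 300 bases made up 27.6%, and 3.91% were over 10000 bases. At the length limit itself, 24 single-exon intergenic transcripts of exactly 200 bases were left out with a median FPKM of 0.975, and 29 that were 1 base longer were kept with a median of 0.936. Both groups rested on few reads, with medians of 8.89 and 8.71 estimated reads per library, where reads were estimated from coverage and length.

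Most members carried no strand. The table gave none for 6424 (81.3%), a plus strand for 821 and a minus strand for 660. Members with a strand were longer, with a median of 2968 against 418 bases, and had a higher median level of 2.05 against 1.29 FPKM. At 13 intervals the same stretch was listed on both strands, so 26 members are pairs that could share their reads. Another overlap was with spliced assembled transcripts, since 1296 members lay in the span of one, 294 of them on its strand, 497 on the opposite strand and 505 with no strand to compare.

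**Figure D1:**
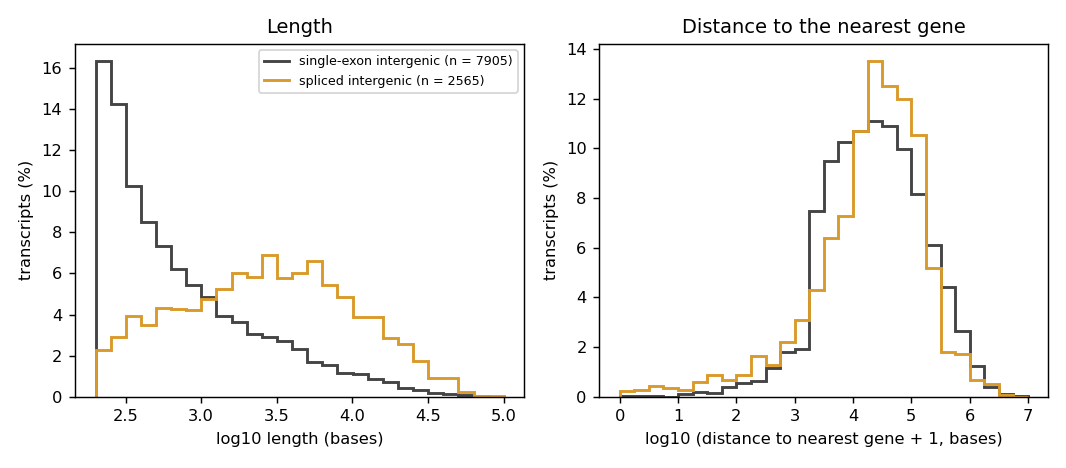
Share of single-exon intergenic transcripts (grey, n = 7905) and of spliced intergenic transcripts (orange, n = 2565) by length (left, log10 bases) and by distance to the nearest annotated transcript (right, log10 of bases + 1). The single-exon transcripts pile up near the lower length limit, and both kinds are most frequent near a log10 distance of 4 to 5.

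Levels were low and lay close together. The median of the mean FPKM over the 6 libraries was 1.37, and 94.7% of members had a mean between 0.5 and 5 FPKM. Only 59 reached 10 FPKM. The median member rested on 34.5 estimated reads per library, against 177 for spliced intergenic transcripts. A longer member tended to have a higher level, with a Pearson correlation of 0.31 and a Spearman correlation of 0.42 between log10 length and log2 mean FPKM across 7905 members, which share libraries and an assembly threshold. Members of at most 300 bases had a median of 1.10 FPKM and those over 10000 bases one of 2.33 FPKM.

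Of the 7905 members, 7000 had a FPKM above 0 in all 6 libraries and 63 in 1 library. With at least 0.1 FPKM counted as detected, 6798 were found in all 6. The members held between 2.48% and 3.09% of the summed FPKM of a library. Without the most abundant member, that range was 2.38% to 2.85%.

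The median member was slightly lower in every Model library than in every Control library. Control medians were 1.49, 1.53 and 1.58 FPKM, and Model medians 1.37, 1.45 and 1.24 FPKM. The groups did not overlap, with Model 3 lowest, and Model 1 and Model 2 were also below each Control. The size of the difference depended on scaling. The median log2 difference of tested members was -0.08 as deposited, -0.04 after scaling by the summed FPKM and -0.03 after scaling by the sample median. In whole tissue, fewer cells of a type and less RNA per cell cannot be told apart, and the cause was not tested. Single-exon intronic transcripts also did not overlap, at 1.80, 1.81 and 1.89 FPKM in Control and 1.71, 1.73 and 1.71 FPKM in Model samples. Spliced intergenic transcripts overlapped, at 1.67, 1.62 and 1.72 against 1.59, 1.63 and 1.39 FPKM. Annotated transcripts lay within a narrow range, at 0.608, 0.607 and 0.624 against 0.594, 0.606 and 0.599 FPKM, and their groups did not overlap either.

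**Figure D2:**
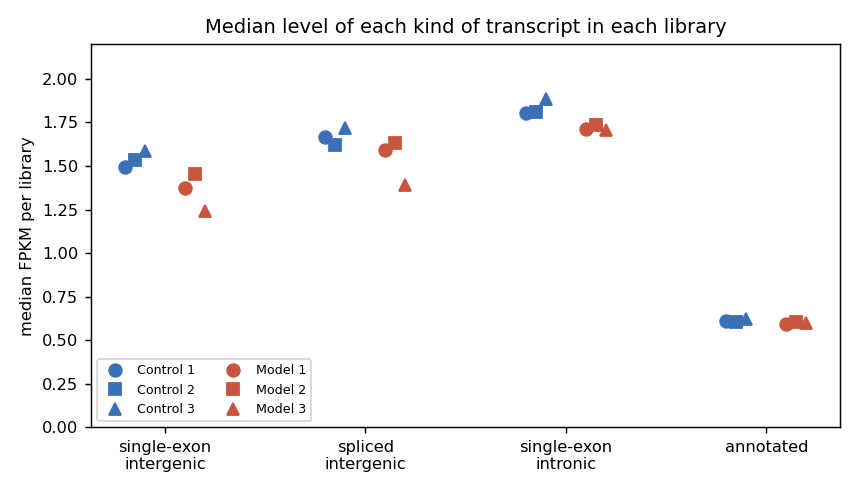
Median FPKM of each kind of transcript in each of the 6 libraries (blue Control, red Model; the symbol gives the replicate). Single-exon intergenic medians lie at 1.49 to 1.58 FPKM in Control and 1.24 to 1.45 FPKM in Model libraries, with Model 3 the lowest.

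The most abundant member, MSTRG.11511.1 (chr14:46329443-46329904, plus strand, 462 bases), was far above all others and differed widely between libraries. Its FPKM was 563, 591 and 178 in Control and 0, 2391 and 1571 in Model samples. Model 1 was listed at 0 while Model 2 held the highest value, so the groups overlapped. How the assembler shared reads between this member and its neighbour is not known, so that 0 may not mean an absence of RNA. The mean was 444 ± 231 in Control and 1321 ± 1215 FPKM in Model samples (SD, n = 3 each), which gives a log2 ratio of means of 1.57, whereas the difference of the mean log2 values, which rests on that 0, was -1.33 (SE 3.08). It began 91 bases downstream of AABR07015042.1, which had FPKM of 42.8, 52.9 and 21.2 in Control and 82.2, 204 and 119 in Model samples, with no library at 0.

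The next members by level did not vary in this way. MSTRG.28826.1 (chr5, 456 bases), 112 kb upstream of the glucose transporter gene Slc2a1, measured 70.8, 68.6 and 50.5 FPKM in Control and 69.0, 67.5 and 125 FPKM in Model samples. MSTRG.5520.1 (chr10, 285 bases), 131 kb downstream of the myelin protein gene Pmp22, measured 69.5, 80.8 and 52.4 against 91.1, 79.0 and 74.4 FPKM. In both the groups overlapped. MSTRG.15634.1 (chr17, 274 bases) had means of 60.9 ± 7.38 in Control and 63.0 ± 12.9 FPKM in Model samples, and MSTRG.37491.1 (chr9, 337 bases) had 55.5 ± 3.21 and 58.4 ± 6.52 FPKM (SD, n = 3 each). Neither differed beyond the spread between rats.

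The sixth by level, MSTRG.5122.1 (chr10:34105255-34105687, 433 bases), lay 44.0 kb upstream of Rack1, which encodes a ribosomal scaffold protein. It measured 48.4, 37.2 and 23.8 FPKM in Control and 69.4, 50.9 and 92.3 FPKM in Model samples. Each Model value was above each Control value. The log2 difference was 0.95 (SE 0.33) with an unadjusted p of 0.0276 by limma, and the Benjamini-Hochberg adjusted p was 0.945. The log2 ratio of means was 0.96, just under the limit of 1 used for a call. Rack1 itself measured between 106 and 108 FPKM in Control and between 113 and 133 FPKM in Model samples.

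The 4 members with the smallest variation, among those with a mean of at least 1 FPKM in all 6 libraries, were 3654 to 56169 bases long. MSTRG.19456.1 (chr2, 56169 bases, plus strand) measured 7.68, 7.25 and 7.72 FPKM in Control and 7.72, 7.09 and 7.45 FPKM in Model samples, with a coefficient of variation of 3.59% over the 6 libraries. MSTRG.15891.1 (chr17, 3654 bases), which began 0.906 kb upstream of Fam171a1, measured 3.19, 3.28 and 3.30 against 3.30, 3.33 and 3.38 FPKM, a coefficient of 1.87%. MSTRG.19354.1, 23.5 kb upstream of Fndc3b, and MSTRG.32368.1 had coefficients of 2.81% and 3.30%. The members were chosen for this, so the coefficients describe them and are not tested.

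The 3 longest members were unspliced stretches of 77619, 74081 and 72046 bases. MSTRG.31134.1 on chr6 varied most, at 1.86, 4.29 and 3.21 FPKM in Control and 4.29, 1.99 and 3.69 FPKM in Model samples. MSTRG.28485.1 on chr5 had a mean of 2.05 ± 0.163 in Control and 1.94 ± 0.195 FPKM in Model samples, and MSTRG.11983.1 on chr14 had 3.58 ± 0.797 and 3.88 ± 0.580 FPKM (SD, n = 3 each). The groups overlapped in all 3.

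Members lay at a wide range of distances from annotated genes. The median distance to the nearest annotated transcript of the table, on either strand, was 23.2 kb, with quartiles at 5.95 and 88.2 kb. Within 5 kb lay 21.9% of members and within 100 kb 76.9%, against 22.3% and 79.5% of spliced intergenic transcripts. Of 10090 gene names carried by assembled transcripts, 445 had no annotated row in the table, so some distances are longer than they would be to a complete annotation. Counting only genes with a mean of at least 1 FPKM, the median distance was 48.7 kb.

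Sides of the gene were not equally filled by members. Only class code u was taken, so transcripts near a gene that carry another code are left out. Members numbered 151 at a log10 distance of 3 to 3.25 and 591 at 3.25 to 3.5, against 79 and 110 spliced intergenic transcripts. The part of the class code in the shares by side was not tested. Of the 401 members within 1 kb of a gene, 79 (19.7%) lay downstream of it and 322 upstream. At 1 to 5 kb the downstream share was 57.3% of 1333 members, and at 10 to 50 kb it was 40.8% of 2425. Members within 1 kb also had the highest median level of any distance, 1.62 FPKM, while the other distances lay between 1.32 and 1.42 FPKM. Among the 214 within 1 kb that carried a strand, 89 were on the strand of the gene and 125 on the opposite one.

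The nearest gene was protein-coding by its RefSeq symbol for 61.0% of members, and for 6.81% it was a small RNA gene named after an Rfam family. The 7905 members had 3812 distinct nearest gene names. Members also lay close to each other, since 3225 (40.8%) were within 5 kb of another member, in 1211 chains of up to 14 members. Neighbours in such a chain may be pieces of 1 RNA and are not independent measurements.

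Model and Control were compared for the 7768 members with a FPKM above 0 in at least 3 libraries, in 1 limma fit with all 64867 transcripts that met this filter, and the other 137 members were not tested. A member was called when its unadjusted p was at most 0.05 and the ratio of group mean FPKM was at least 2-fold, which are the limits of the study's methods. Over all transcripts tested, 2.98% were called, 1.22% higher and 1.76% lower in Model samples. Among the members, 264 (3.40%) were called, 66 (0.850%) higher and 198 (2.55%) lower. Without the limit on the ratio, 380 members (4.89%) and 4.53% of all transcripts tested passed on p alone. The share called was thus near the background.

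The direction of the calls differed from that of all transcripts, of which 58.9% of the calls were lower, against 75% for the members. Of all tested members, 62.5% had a negative log2 difference, with a median of -0.08 against -0.02 over all transcripts tested and 0.00 over annotated ones. Scaling by the summed FPKM (TPM) moved the median of the members to -0.04 and that of all transcripts to 0.02, and the calls to 83 higher and 156 lower. Scaling by the sample median gave 84 higher and 167 lower. Without Model 3, 92 were higher and 180 lower with a median of -0.05, and without Control 1, 107 were higher and 284 lower. The F test on untransformed FPKM with a library size term gave 24 higher and 33 lower, the most even split. Single-exon intronic transcripts also had more calls lower, 115 of 171, and the difference between the kinds was not tested.

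Groups that did not overlap were found for 10.4% of all transcripts tested, 4.12% higher and 6.29% lower in Model samples. The members had 861 of these (11.1%), 234 (3.01%) higher and 627 (8.07%) lower, and single-exon intronic transcripts had 3.10% higher and 8.16% lower.

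Calls were concentrated where reads were few. Of members with fewer than 10 estimated reads per library, 6.51% were called, and of those with 10 to 20 reads 6.13%. The share was 3.17% at 20 to 50 reads, 1.86% at 50 to 100, 1.06% at 100 to 1000 and 0.575% above 1000 reads. The median coefficient of variation over the 6 libraries fell from 99.3% to 12.6% along the same groups. The called members had a median of 16.3 estimated reads against 34.9 for all tested members, and 59.5% of them had fewer than 20. With at least 20 reads required, 107 of 5254 tested members were called, 24 higher and 83 lower.

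**Figure D3:**
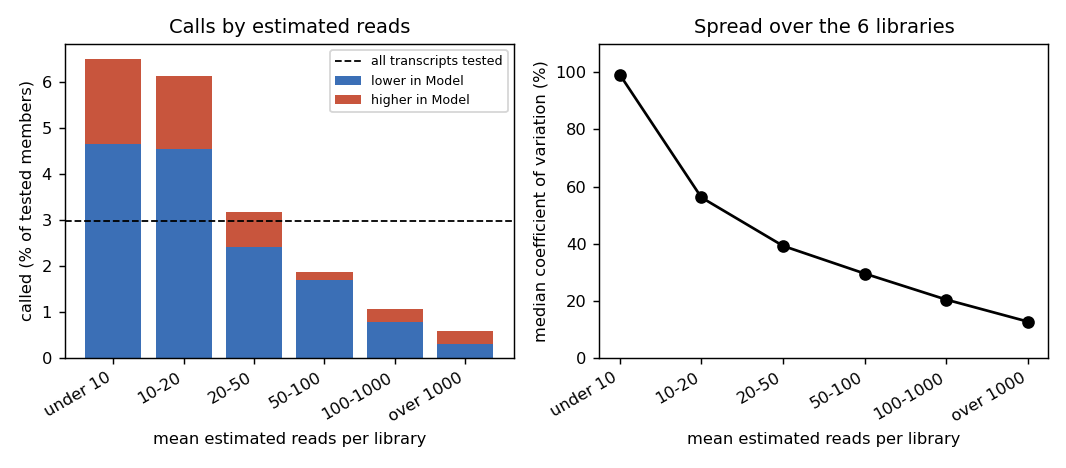
Left, percent of tested members called lower (blue) or higher (red) in Model samples by mean estimated reads per library, with the share over all transcripts tested (2.98%) as a dashed line. Right, the median coefficient of variation over the 6 libraries, which declines from 99.3% under 10 reads to 12.6% over 1000 reads.

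Distance to a gene was not accompanied by a clear gradient in calls. The share called was 3.61% within 1 kb, 2.35% at 1 to 5 kb, 3.53% at 5 to 10 kb, 3.27% at 10 to 50 kb, 4.06% at 50 to 100 kb and 3.88% beyond. The difference between groups of a member was barely related to that of its nearest gene. This comparison held 4466 members, fewer than the 7768 tested, so it does not cover all members. It held 307 of the 388 tested members within 1 kb of a gene and 713 of the 1779 beyond 100 kb, so distant members are covered less. Across the 4466 the Pearson correlation of both log2 differences was 0.04 and the Spearman correlation 0.08, and 53.7% of pairs had the same sign. Within 1 kb the values were 0.05 and 0.13 over 307 members. These points share the same 6 libraries, so they are given without a test.

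After Benjamini-Hochberg adjustment over all transcripts tested, 18 of them (0.0277%) and 3 of the members passed an adjusted p of 0.05 in limma. All 3 were listed at 0 in every library of 1 group. They met the filter of 3 libraries only through the group in which they were found, so they had to differ, and their values are given as a description. MSTRG.31460.1 (chr6:132291762-132295803, minus strand, 4042 bases) measured 2.59, 2.82 and 2.51 FPKM in Control and was listed at 0 in the 3 Model samples. It held 244 estimated reads per library on average over the 6. It lay 18.0 kb downstream of Cyp46a1, a cholesterol hydroxylase gene, which itself measured 0.316 to 0.493 FPKM in Control and 0.342 to 0.462 FPKM in Model samples.

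MSTRG.36565.1 (chr9:23867410-23869413, 2004 bases) had the opposite pattern. It was listed at 0 in the 3 Control samples and measured 1.83, 2.21 and 1.84 FPKM in Model samples, with 90.4 estimated reads on average. Its nearest gene, Rhag, which encodes a glycoprotein of red cell membranes, was 374 kb away. MSTRG.5530.1 (chr10:51308380-51308590, 211 bases) was also listed at 0 in Control and measured 1.66, 1.54 and 1.44 FPKM in Model samples, but on 7.53 reads. Its nearest gene was Elac2, a tRNA processing enzyme gene, at 170 kb. With any 1 library left out, whichever it was, no member passed the adjusted limit in limma, while 330 to 459 had an unadjusted p of 0.05 or less. MSTRG.31460.1, MSTRG.36565.1 and MSTRG.5530.1 no longer met the filter when a library of the group that held them was left out. Those fits did not test them.

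Members with such a complete switch were few. Over all transcripts tested, 0.166% were at 0 in every Control and above 0 in every Model sample, and 0.177% the reverse. The members had 4 (0.0515%) and 6 (0.0772%) of these, all of which met the filter only through the group in which they were found. Beside those above, MSTRG.19908.1 (chr2, 276 bases) was listed at 0 in Control and measured 2.30, 1.99 and 1.47 FPKM in Model samples. MSTRG.35096.1 (chr8, 343 bases), 6.07 kb upstream of the vesicle transport gene Rab8b, was listed at 0 in Control and measured 1.71, 1.47 and 0.923 FPKM in Model samples. The other 5, MSTRG.13070.1, MSTRG.1396.1, MSTRG.20298.1, MSTRG.23440.1 and MSTRG.25955.1, were at 0 in Model samples with Control means from 0.981 to 1.77 FPKM. These 7 had between 5.91 and 17.4 estimated reads per library on average, where a listed 0 cannot be told from a level of a few reads.

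Among tested members with a mean of at least 1 FPKM, the 7 with the smallest p in the higher direction were mostly short. They were picked by p, so their separation follows largely from that choice and is given as a description. MSTRG.10438.1, MSTRG.14385.1, MSTRG.10011.1, MSTRG.26792.1 and MSTRG.22603.1 had Control means below 1 FPKM. These members met the limit on the mean only through the Model samples. MSTRG.10438.1 (chr13:91257341-91258361, 1021 bases) was the longest and showed the widest change, at 0, 0.167 and 0 FPKM in Control and 5.51, 1.78 and 6.38 FPKM in Model samples. The groups did not overlap, and the limma log2 difference was 2.28 (SE 0.40) with an unadjusted p of 0.00142 and an adjusted p of 0.533. In the F test on untransformed FPKM with a library size term the p was 0.289. Its nearest annotated gene, LOC498276, 28.3 kb away, overlapped between groups at 6.05 to 12.9 FPKM in Control and 7.25 to 12.7 FPKM in Model samples.

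MSTRG.22603.1 (chr3:13865925-13866241, 317 bases) began 81 bases upstream of Rabepk, which encodes a partner of a Rab protein of endosomes. It measured 0.994, 0.807 and 1.17 FPKM in Control and 2.33, 2.23 and 2.77 FPKM in Model samples, a log2 difference of 0.79 (SE 0.15, limma unadjusted p 0.00235, adjusted p 0.630). The values of Rabepk also did not overlap, at 1.96, 2.43 and 1.94 FPKM in Control and 2.80, 2.59 and 2.63 FPKM in Model samples.

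MSTRG.9796.1 (chr13, 416 bases, minus strand) was the most even of the 7, at 2.02, 2.23 and 1.78 FPKM in Control and 3.47, 3.62 and 3.63 FPKM in Model samples. With a log2 ratio of means of 0.83 it was not a call. MSTRG.26792.1, MSTRG.14385.1 and MSTRG.10011.1 had Control means of 0.430, 0.165 and 0.224 FPKM and Model means of 1.69, 2.75 and 2.51 FPKM, on 10.5, 13.9 and 20.8 estimated reads. In all of these the groups did not overlap. Adjusted p in limma lay between 0.492 and 0.668 for the 7. In that F test the p of MSTRG.14385.1 was 0.135.

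In the lower direction, 4 of the 7 members came from 1 interval on chr9 described below, and MSTRG.31460.1 was described above. All 7 were picked by p, so their separation is also a description. MSTRG.21986.1 and MSTRG.15263.1 met the limit on the mean FPKM only through the Control samples. MSTRG.21986.1 (chr20:32940203-32940989, 787 bases) measured 2.11, 2.16 and 1.65 FPKM in Control and 0.297, 0 and 0 FPKM in Model samples, with a limma log2 difference of -1.44 (SE 0.17) and an adjusted p of 0.158. MSTRG.15263.1 (chr17:32226115-32227186, 1072 bases), 16.5 kb downstream of the protease inhibitor gene Serpinb6a, measured 1.93, 1.75 and 1.76 FPKM in Control and 0.751, 0.769 and 0.650 FPKM in Model samples, with a limma log2 difference of -0.71 (SE 0.13) and an adjusted p of 0.618. Neither overlapped between groups. Serpinb6a did, at 5.25 to 6.41 against 4.16 to 10.6 FPKM.

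**Figure D4:**
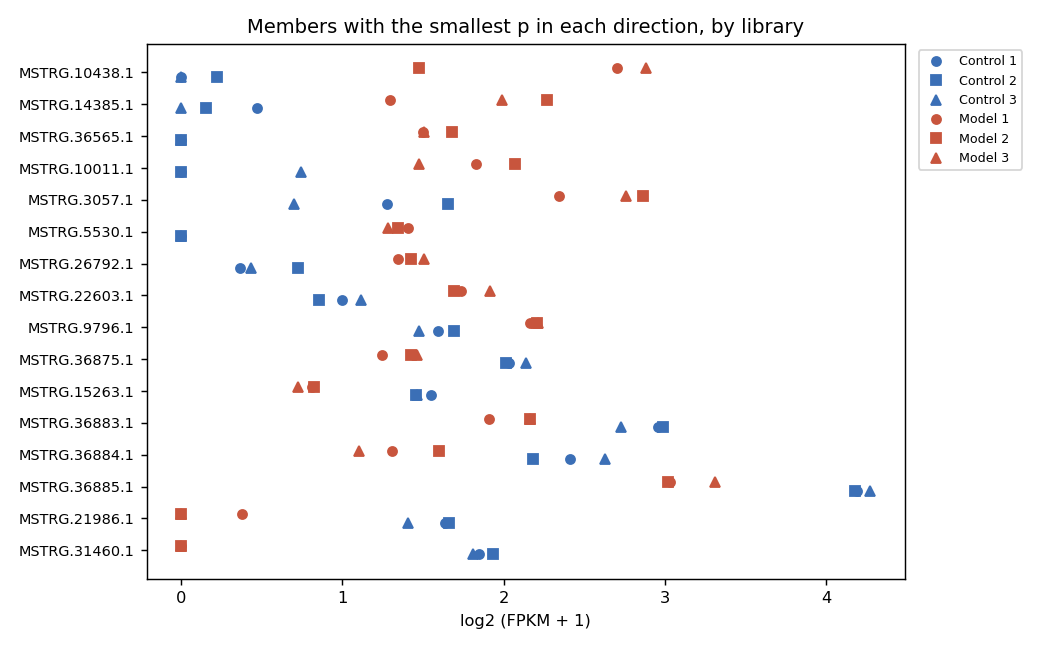
log2(FPKM + 1) in each library (blue Control, red Model; the symbol gives the replicate) of the 7 members with the smallest p in each direction among those with a mean of at least 1 FPKM, and of 2 further members with an adjusted p below 0.05. Control and Model points are apart in every row, which follows from the choice of members by p. MSTRG.36885.1 has the highest level, at 17.1 to 18.4 FPKM in Control and 7.12 to 8.92 FPKM in Model samples.

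The interval on chr9 lies between Col5a2, which encodes a chain of type V collagen, a minor fibrillar collagen, and Wdr75, a ribosome biogenesis gene. These are the nearest genes with annotated transcripts among those listed, and a gene that is not listed may lie between them. It was singled out after its values were seen, so its members are described by their own fits and the list has no test. All 18 members between these genes are included. They spread from 3.83 to 263 kb upstream of Col5a2, in an interval of 449 kb of which they cover 16.0%, and 12 of them carried no strand.

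All 18 had a negative log2 difference, with a median of -0.58. Of these 11 had an unadjusted p of at most 0.05 (4.53% over all transcripts tested), 5 were called lower (1.76%) and 11 did not overlap between groups with Model lower (6.29%). None passed an adjusted p of 0.05 in limma. Weighted by length, their mean FPKM was 3.54, 3.57 and 3.39 in Control and 1.51, 1.79 and 2.41 in Model samples. Model 3 was the highest Model library, and still below each Control.

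MSTRG.36885.1 (chr9:52467923-52468464, minus strand, 542 bases) was the most abundant of them. It measured 17.3, 17.1 and 18.4 FPKM in Control and 7.19, 7.12 and 8.92 FPKM in Model samples. The groups were far apart relative to their spread, with means of 17.6 ± 0.673 and 7.74 ± 1.02 FPKM (SD, n = 3 each), and the limma log2 difference was -1.09 (SE 0.11, unadjusted p 7.32e-05, adjusted p 0.107).

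The longest, MSTRG.36883.1 (chr9:52420005-52433408, plus strand, 13404 bases), rested on 2973 estimated reads per library. It measured 6.78, 6.93 and 5.63 FPKM in Control and 2.75, 3.47 and 3.48 FPKM in Model samples, a limma log2 difference of -0.81 (SE 0.13, adjusted p 0.440). MSTRG.36884.1, 530 bases long, measured 4.31, 3.53 and 5.20 against 1.48, 2.03 and 1.15 FPKM. MSTRG.36875.1, 8757 bases long, measured 3.09, 3.04 and 3.41 against 1.37, 1.69 and 1.75 FPKM. In each of these the Model values lay below the Control values.

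The levels rose with distance from Col5a2. The 10 members up to 77.6 kb had Control means from 1.11 to 2.28 FPKM, and the 8 beyond from 3.18 to 17.6 FPKM. Between 22.8 and 33.1 kb upstream, 5 members of 210 to 996 bases had Control means from 1.11 to 2.27 FPKM. MSTRG.36863.1, at 46.9 kb, measured 1.97, 1.73 and 1.82 FPKM in Control and 0.824, 0.908 and 1.92 FPKM in Model samples. MSTRG.36887.1, the farthest, measured 8.12, 7.61 and 8.52 against 3.07, 4.05 and 9.44 FPKM. In both, Model 1 and Model 2 lay below Control while Model 3 did not. Without Model 3 the limma p fell to 0.0124 for MSTRG.36863.1, from 0.134, and to 0.00095 for MSTRG.36887.1, from 0.143. For MSTRG.36864.1 it fell to 0.0258, from 0.249.

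The spliced assembled transcripts of the same interval had the same sign. Of 9, 8 of them on the minus strand, all had a negative log2 difference, 3 were called lower and 5 did not overlap between groups. The spliced intergenic MSTRG.36886.1 measured 7.47, 7.66 and 8.84 FPKM in Control and 3.24, 3.81 and 3.83 FPKM in Model samples (limma log2 difference -0.96, adjusted p 0.165). Some of these spliced transcripts may share reads with the single-exon members inside their span. MSTRG.36873.1, MSTRG.36873.4 and MSTRG.36877.1, all on the minus strand, carried the class code o, which marks overlap with an annotated exon. An annotated gene without a row of its own may thus lie in the interval.

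The flanking genes did not move in this way. Col5a2 measured 29.6, 23.0 and 16.5 FPKM in Control and 18.1, 17.6 and 27.3 FPKM in Model samples, and the groups overlapped. Wdr75 measured 5.91, 5.67 and 6.04 against 5.82, 6.30 and 4.90 FPKM, also overlapping. Col3a1, the type III collagen gene on the other side of Col5a2, measured 174, 178 and 154 FPKM in Control and 189, 204 and 233 FPKM in Model samples, each Model value above each Control value.

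Leaving out 1 library changed how many of the 18 were called, from 2 without Model 1 to 11 without Model 3. The sign was negative for all 18, or for 17 when Control 1 or Model 3 was left out, where MSTRG.36859.1 turned positive. TPM scaling left 3 called and the F test with a library size term 2, both with all 18 negative.

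**Figure D5:**
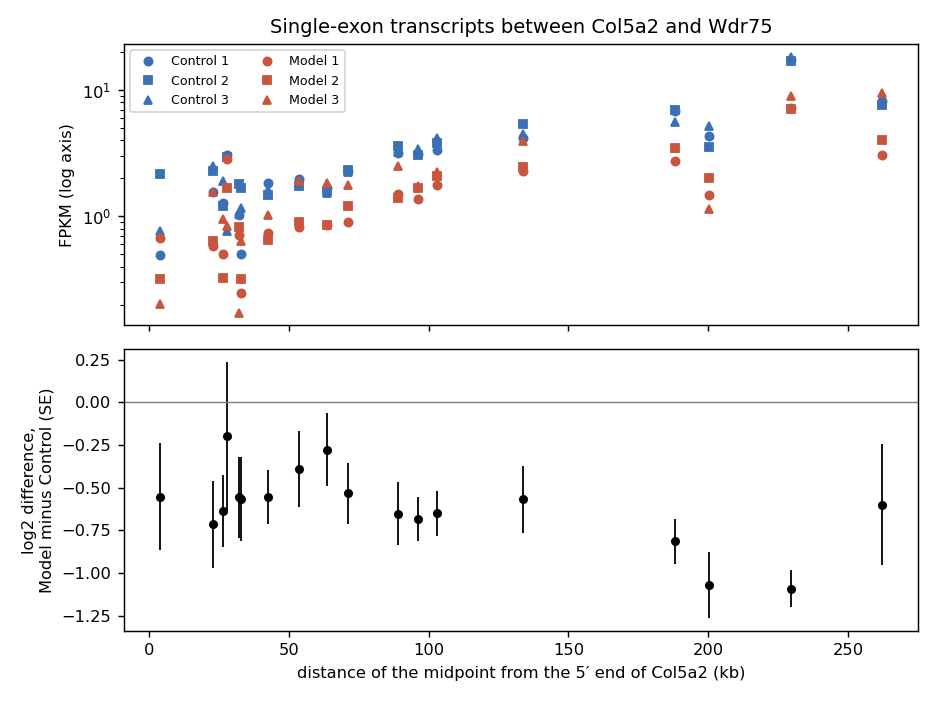
The 18 single-exon transcripts between Col5a2 and Wdr75 by the distance of their midpoint from the start of Col5a2 (kb). Top, FPKM in each library on a log axis (blue Control, red Model; the symbol gives the replicate). Bottom, the log2 difference of Model minus Control from limma with its standard error, below 0 for each of the 18 and lowest for MSTRG.36885.1 at -1.09.

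Elsewhere, neighbouring members were seldom called together. Chains of members less than 5 kb apart, or single members, held a called member in 260 cases, and in 4 of them more than 1 was called. On chr1, MSTRG.2003.1 and MSTRG.2004.1, at least 12416 bases from the tight junction gene Tjp1, cover the same stretch but for 1 base and may share their reads. MSTRG.2003.1 measured 3.57, 5.17 and 4.04 FPKM in Control and 2.55, 2.38 and 1.11 FPKM in Model samples. On chr19, MSTRG.17408.1 was called higher and its neighbour MSTRG.17409.1 lower, on 7.91 and 10.9 estimated reads. The other 2 chains, on chr9 beside Col5a2 and on chrY, held 2 members each called lower. In the one on chrY, MSTRG.39210.1 measured 3.94, 3.56 and 1.13 FPKM in Control and 0.685, 0.259 and 0 FPKM in Model samples. The summed FPKM of all 26 members on chrY was lowest in Model 3, at 23.3, with the other libraries between 36.4 and 43.7.

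Members near genes of lung and fibrosis were looked up with 104 gene names in 7 lists. Within 100 kb of such a gene lay 85 members, of which 83 were tested and 5 (6.02%) called, 1 higher and 4 lower, against 2.98% of all transcripts and 3.40% of the members. With counts this small, neither the total nor the list counts that follow are a result about these genes. The fibrosis and matrix genes had 18 members nearby with 2 called lower, lung epithelium genes 1 of 19, endothelial genes 1 of 11 and immune genes 1 of 13, the last higher. Col5a2 was not among the genes looked up. The members called lower within 100 kb of it on chr9 are therefore not in these counts, which do not cover all matrix genes. The 17 tested members near transcription factors of lung lineages had none called, nor had 3 near cardiac and 2 near erythroid genes, and no member of these 3 groups reached an unadjusted p of 0.05 in limma.

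MSTRG.329.1 (chr1:21848518-21848780, 263 bases) began 2.88 kb downstream of Ctgf, which encodes a matrix protein induced in fibrosis. It measured 1.04, 1.89 and 1.79 FPKM in Control and 0.519, 0.902 and 0.494 FPKM in Model samples, without overlap, on 13.3 estimated reads. The limma log2 difference was -0.65 (SE 0.20, unadjusted p 0.0211, adjusted p 0.945). The p rose above 0.05 when 1 of 4 libraries was left out, to 0.0616 without Control 2, 0.0598 without Control 3, 0.0660 without Model 1 and 0.0630 without Model 3, and it was 0.281 in the F test. Ctgf itself overlapped between groups, at 6.52, 10.7 and 12.6 against 8.09, 8.73 and 12.7 FPKM.

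MSTRG.28402.1 (chr5:113857097-113858967, minus strand, 1871 bases) began 4.30 kb downstream of Tek, the angiopoietin receptor gene of endothelial cells. It measured 1.77, 2.91 and 2.31 FPKM in Control and 1.33, 1.58 and 0.553 FPKM in Model samples, without overlap (limma unadjusted p 0.0467, adjusted p 0.945). This p rose to 0.0547 with a pseudocount of 0.1, 0.0586 after TPM and 0.0554 after median scaling, and to 0.444 in the F test. It was 0.135 without Control 2, 0.0994 without Control 3, 0.0683 without Model 1 and 0.0985 without Model 3. Tek measured 45.0 to 51.7 FPKM in Control and 43.8 to 53.4 FPKM in Model samples.

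The other 3 lay farther away. MSTRG.37833.1 on chrX, 90.2 kb from Timp1, an inhibitor of matrix metalloproteinases, measured 5.61, 3.25 and 7.64 FPKM in Control and 3.22, 0.756 and 0.659 FPKM in Model samples. Its limma p of 0.0207 became 0.0567 without Control 1, 0.0667 without Control 3, 0.0644 without Model 2 and 0.0656 without Model 3, and 0.419 in the F test. MSTRG.3688.1 on chr1, 56.5 kb from Scgb1a1, measured 3.10, 2.03 and 2.03 FPKM in Control and 1.11, 1.10 and 0.985 FPKM in Model samples. MSTRG.3057.1 on chr1, 91.0 kb from Itgax, an integrin gene of dendritic cells and macrophages, was the 1 called higher, at 1.42, 2.15 and 0.625 FPKM in Control and 4.08, 6.27 and 5.76 FPKM in Model samples. None of the 3 overlapped between groups. In the F test the p was 0.0849 for MSTRG.3688.1 and 0.0827 for MSTRG.3057.1, and the limma adjusted p of all 3 lay between 0.668 and 0.945. Each of the 3 had another annotated gene closer to it than the listed one.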

How the data were processed

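Lung RNA of 3 Control and 3 Model rats, with 1 library each, was grouped by the condition in the labels. The authors cleaned the reads with Cutadapt, aligned them by Bowtie2 and TopHat2 (the labels also list HISAT2), assembled and merged transcripts with StringTie, and deposited FPKM for each transcript and library. A deposited coverage signal, not scaled to library size, gave estimated reads as coverage times length over the read length of 150 bases. Reads were aligned with default settings, while other settings, the annotation release and the genome build are not given in the sources used here. The labels name a stranded library kit and the study's methods another. CircRNA values were not used.

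Distances were to the nearest row with an Ensembl identifier on the same chromosome. Nearest gene values are sums of FPKM over annotated transcripts. Model and Control were compared with limma 3.58.1 (eBayes with trend, two-sided) in R 4.3.3 on log2(FPKM + 1), without covariates, over transcripts above 0 FPKM in at least 3 of 6 libraries, with Benjamini-Hochberg adjustment over all of them. Log2 differences on this scale understate changes at low levels, and calls use the ratio of mean FPKM. A limma p-value sets the difference between the groups against the spread between samples, moderated over all transcripts tested. Tables were handled in Python 3.11.15 with pandas 2.3.3.

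The members and gene lists were chosen with earlier results of these data known. Named members were the 6 with the highest mean FPKM, the 7 with the smallest p in each direction among those with a mean of at least 1 FPKM, every member with an adjusted p below 0.05, the 3 longest, up to 3 called members per list within 100 kb of a listed gene, the 4 with the smallest coefficient of variation among those with a mean of at least 1 FPKM and found in all 6 libraries, and those next to the length limit. The interval beside Col5a2, the members at 0 in 1 group and the chains with several calls were named after their values were seen. As alternatives, the pseudocount, the filter, the scaling or the test was changed, and a block for the replicate number or the removal of 1 library was tried. Limits to 1 member per both-strand interval, to 20 estimated reads, to members without a strand and to members outside spliced spans were chosen after seeing the data.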

Additional observations from a re-analysis of the deposited data

How the results depend on the processing

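The count of 264 members called, of 7768 tested, became 142 of 6125 with a mean of at least 1 FPKM (34 higher, 108 lower). It became 107 of 5254 with at least 20 estimated reads (24 higher, 83 lower). An F test on untransformed FPKM that also takes a library size term gave 57 of 7768 (24 higher, 33 lower). Leaving out each library in turn gave between 258 and 391 calls among 7704 to 7717 members tested. Of these calls 74 to 107 were higher and 180 to 284 lower, and the 107 higher came without Control 1. The shares called over all transcripts under these settings are not given here, so these counts have no background beside them. The count of 3 members with an adjusted p below 0.05 became 5 with a pseudocount of 0.1, 1 when only assembled transcripts were fitted, and 0 with no filter, with a mean of at least 1 FPKM, with the F test and without any 1 library (0 to 0). Unadjusted p of at most 0.05 was then reached by 363, 262, 372 and 330 to 459 members. MSTRG.36565.1 and MSTRG.5530.1, with means of 0.980 and 0.773 FPKM, were not in the fit with a mean of at least 1 FPKM. Each of the 3 members was also not tested when a library of the group that held it was left out. The cause of the changes in these counts was not otherwise tested. Replicate numbers did not pair the samples, since the correlations of same-numbered deviations were 0.01, 0.05 and -0.04, and with the replicate block 284 members were called (77 higher, 207 lower), 0 of them at an adjusted p below 0.05 and 347 members at an unadjusted p of at most 0.05. The median distance was 48.7 kb to genes of at least 1 FPKM, 2 members within 10 kb of a listed gene were called in place of 5 within 100 kb, and the median FPKM was 1.54 for lengths of at least 500 bases. The log2 difference of MSTRG.36859.1, -0.20 with all libraries, lay between -0.59 and 0.068 with 1 left out, at 0.0076 without Control 1 and at 0.068 without Model 3. The F test raised the p of 10 named members above 0.05, which was at most 0.05 in the fit reported, and the largest was 0.444 for MSTRG.28402.1, whose p was 0.0577 with the replicate block.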
